A study of Ovis aries with 95 samples.

Results

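Each of 6 proliferation genes was followed on its own through the last stage of brain development in the sheep (Ovis aries). They are CCNA2, CDK1, AURKA, TYMS, PCNA and LMNB1, that is 6 of the 14347 genes on the array, and they were chosen by name, from the gene name or the gene identity that the array files give for each probe. RNA came from 4 brain regions, the cortex, brainstem, hippocampus and hypothalamus, of fetuses at 80, 100, 120, 130 and 145 days of gestation, and of newborn lambs on day 1 after birth. No treatment or allele is given for any group, and each of the 24 combinations of region and age holds 4 arrays, 1 RNA sample on each, except the hippocampus at 100 d with 3, so that 95 one-colour arrays were read. Every age included a pair of twins, which the labels do not mark. The tests below took the arrays of a group as independent, so that they do not allow for the twins. By the methods 4 animals were taken at each age and the 4 regions were dissected from the same brains. The regions therefore share animals, although the labels do not say which samples came from the same one. A level is the normalized log2 brightness of a gene's probe, 1 unit being a doubling, and a change is the difference of group means on that scale. Levels of different genes were not compared, since each probe has its own brightness, and levels of different regions were not compared, since each slide held samples of a single region.

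All 6 genes belong to the machinery of dividing cells. In the developing brain, neurons and glia come from progenitors that line the ventricles and from glial precursors that divide later within the tissue, and RNA of the cell cycle falls as such cells leave the cycle. CCNA2 (cyclin A2) binds cyclin-dependent kinases during DNA synthesis and before mitosis, CDK1 is the kinase that drives entry into mitosis, and AURKA (aurora kinase A) acts on centrosomes and the spindle. TYMS (thymidylate synthase) makes the thymidine nucleotide for DNA, and PCNA is the sliding clamp of DNA polymerase, which also serves DNA repair. LMNB1 (lamin B1) is a protein of the nuclear lamina that is abundant in cycling cells and neural progenitors. The RNA was taken from whole tissue, so that fewer cells of a type and less RNA per cell cannot be told apart.

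The 6 genes were read by 8 probes of 60 bases, a pair each for PCNA and LMNB1 and 1 for each of the other 4. Their sequences are shown because each value below is the brightness of these stretches and of nothing else in the transcript. Capitals mark the 30 bases that the probes of a pair share.
CCNA2: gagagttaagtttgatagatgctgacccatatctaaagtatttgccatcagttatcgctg
CDK1: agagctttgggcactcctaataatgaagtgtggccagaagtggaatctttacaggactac
AURKA: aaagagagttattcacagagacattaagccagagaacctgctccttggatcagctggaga
TYMS: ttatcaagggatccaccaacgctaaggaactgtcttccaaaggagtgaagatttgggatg
PCNA probe 1: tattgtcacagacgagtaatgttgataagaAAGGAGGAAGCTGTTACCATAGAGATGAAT
PCNA probe 2: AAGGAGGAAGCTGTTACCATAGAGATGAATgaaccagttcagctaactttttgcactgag
LMNB1 probe 1: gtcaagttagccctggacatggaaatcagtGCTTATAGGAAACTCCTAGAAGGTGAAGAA
LMNB1 probe 2: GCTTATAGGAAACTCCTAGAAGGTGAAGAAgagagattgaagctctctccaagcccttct
The GC content of the probes ran from 36.7% (PCNA probe 1) to 45.0% (CDK1, AURKA, TYMS and LMNB1 probe 2). The array files list CDK1 under its older name CDC2, and TYMS and LMNB1 under locus names whose identifiers the RefSeq gene table of the ARS-UI_Ramb_v3.0 assembly gives as TYMS and LMNB1. Since the probes of a pair overlap, their spots are no independent readings of the gene, and they were averaged.

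Between 59.5% and 88.5% of gene spots were well above background on an array, and no spot of the 6 genes was saturated. On most arrays the profile was close to that of the other arrays of the region, with median correlations of 0.960 to 0.987 in the cortex, 0.965 to 0.985 in the brainstem, 0.913 to 0.949 in the hippocampus and 0.922 to 0.970 in the hypothalamus, over all genes other than the 6. A median correlation under 0.9 was found for 6 arrays: brainstem replicate 4 at 1 d (0.876) and, in the hippocampus, replicate 3 at 100 d (0.888), replicate 4 at 120 d (0.843), replicate 3 at 130 d (0.892), replicate 4 at 145 d (0.891) and replicate 3 at 1 d (0.878). The 5 hippocampal arrays lay on 1 slide, which held no 80 d sample. On the brainstem array a dim area of 3069 spots covered the TYMS spot and 1 spot each of PCNA and LMNB1. Smaller dim areas covered 4 spots of LMNB1, PCNA and TYMS on hippocampus replicate 1 at 80 d, the CDK1 spot on hippocampus replicate 2 at 145 d and hypothalamus replicate 2 at 100 d, and 1 LMNB1 spot on hypothalamus replicate 3 at 120 d. These arrays were kept, and results whose call or size changes without the 6 arrays of low correlation are given both ways. In the hippocampus their PCNA level was 7.47 to 8.19, against 8.73 to 10.42 on the other arrays of the same ages, and it was below all of those at 5 of 5 ages. CCNA2 was likewise lower at 5 of 5 ages, CDK1, TYMS and LMNB1 at 4 of 5, and AURKA at 1 of 5. Their part in the changes of the 6 genes was not tested beyond leaving them out.

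**Figure D1:**
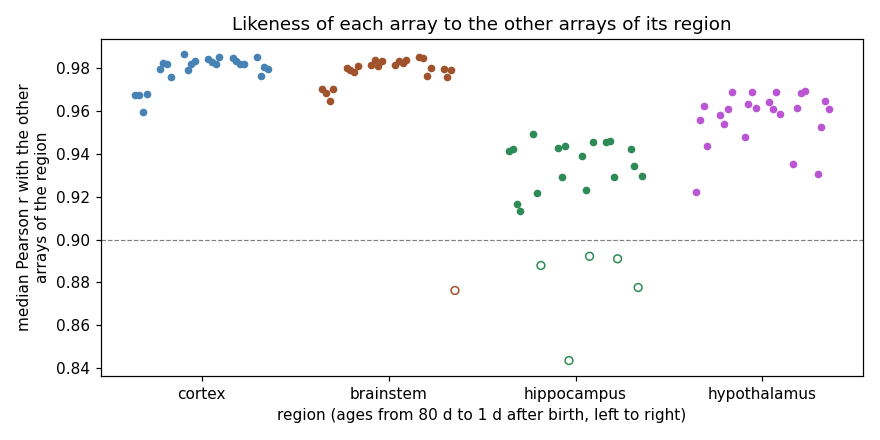
Median Pearson correlation (y axis, no unit) of each of the 95 arrays with the other arrays of its region, over all genes other than the 6; points run from 80 d to 1 d after birth within a region (x axis). The dashed line is at 0.9, and the hollow points are the 6 arrays below it, 5 of them in the hippocampus and 1 in the brainstem.

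Across the ages, the group mean of each gene was lower at 1 d after birth than at 80 d of gestation in all 4 regions, by the least for AURKA. Changes are given as differences of log2 levels from 80 d unless another age is named. An F test for any difference among the 6 ages (limma, adjusted over all genes of the region) was passed by 6 of 6 genes in the cortex, where 45.8% of all genes tested passed, and by 6 of 6 in the brainstem, where 40.1% passed. In the hypothalamus 5 of 6 passed, all but AURKA, against 14.8% of all genes. In the hippocampus 1 of 6 passed, LMNB1, against 3.01% of all genes, and 4 of 6 without the arrays of low correlation (CCNA2, CDK1, TYMS and LMNB1, against 5.62% of all genes). The median change of the 6 genes from 80 d to 1 d was -1.10 in the cortex, -1.75 in the brainstem, -1.76 in the hippocampus and -1.13 in the hypothalamus, and without the arrays of low correlation -1.66 in the brainstem and -1.69 in the hippocampus. Over all genes tested that median was -0.03, 0.03, -0.02 and -0.03. The sizes depend on the processing, and with the scanner's processed signal and 75th-percentile scaling in place of normexp and quantiles 38 of the 48 changes to 145 d and 1 d were more than 1.5 times those given here, none of them of PCNA.

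**Figure D2:**
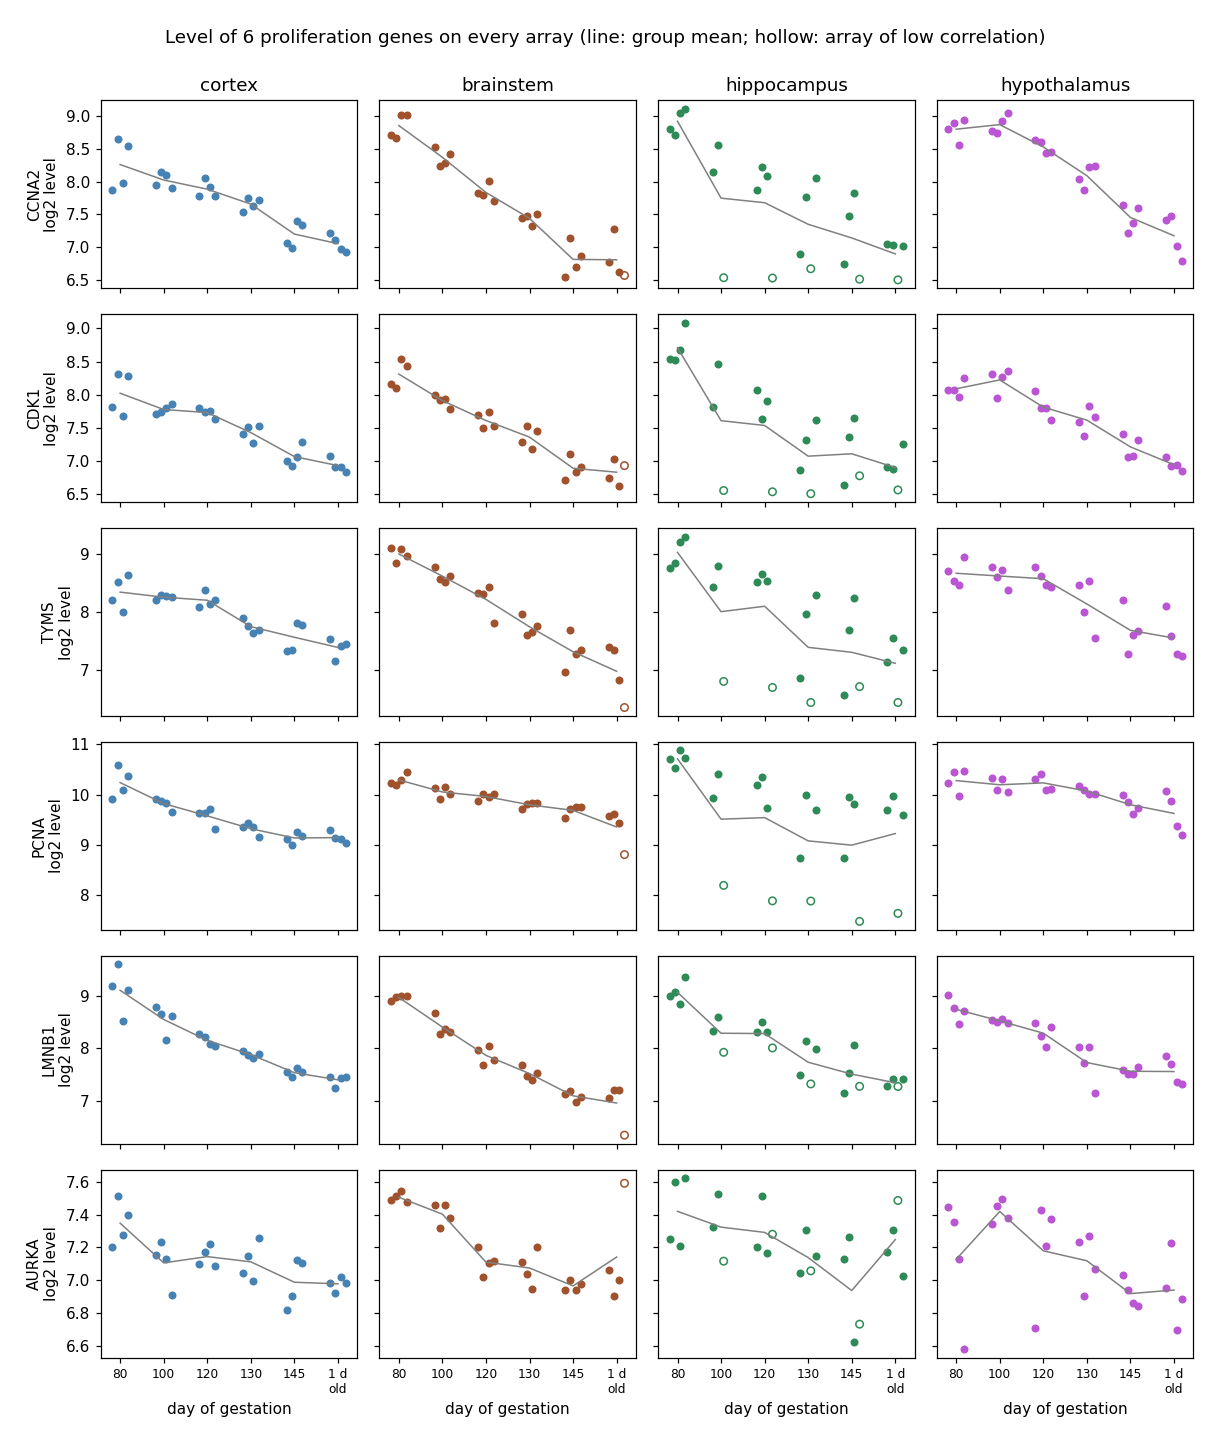
Level (log2 brightness, y axis) of each gene (rows) on every array of each region (columns) at the 6 ages (x axis, evenly spaced categories); lines join group means, and hollow points are the 6 arrays of low correlation. Brainstem CCNA2 went from 8.67 to 9.02 at 80 d to 6.57 to 7.27 at 1 d after birth, while AURKA in the hypothalamus overlapped between all ages and 80 d.

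CCNA2, the cyclin of DNA synthesis and late interphase, fell in a sequence of steps in the brainstem, and its first call came at 100 d there, at 120 d in the cortex and at 130 d in the hypothalamus. In the brainstem its level was 8.72, 8.67, 9.02 and 9.02 on the 4 arrays at 80 d and 8.54, 8.24, 8.29 and 8.42 at 100 d, each 100 d array being below each 80 d array. That drop of 0.49 (SE 0.14, adjusted p = 0.0315) was called, as were the next from 100 d to 120 d, with levels of 7.83, 7.80, 8.01 and 7.70 at 120 d, and the one from 130 d (7.45, 7.48, 7.32 and 7.51) to 145 d (6.55, 7.13, 6.70 and 6.87). The change from 100 d to 120 d was -0.54 (SE 0.14, adjusted p = 0.0415) and that from 130 d to 145 d was -0.63 (SE 0.14, adjusted p = 0.0318). At 1 d after birth the levels were 6.77, 7.27, 6.62 and 6.57, around those of 145 d, and CCNA2 was lower by 2.05 (SE 0.14, adjusted p = 1.03e-09) from 80 d, a 4.15-fold lower brightness, and by 1.97 (SE 0.15, adjusted p = 2.43e-09) without the array of low correlation. At 145 d its probe was well above background on 2 of 4 brainstem arrays and at 1 d on 1 of 4, so that these last levels lie at the floor of the measurement and the full size of the fall is not resolved.

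In the cortex the CCNA2 levels at 80 d were spread, at 7.88, 8.65, 7.98 and 8.55, and those at 100 d (7.95, 8.14, 8.10 and 7.91) lay among them. The first call was at 120 d, with 7.79, 8.05, 7.92 and 7.78 and a change of -0.38 (SE 0.14, adjusted p = 0.0479), and it was lost when 1 array was left out in 18 of 24 cases. From 130 d (7.53, 7.75, 7.62 and 7.72) every array was below the lowest 80 d array. By 1 d, with 7.21, 7.11, 6.96 and 6.92, CCNA2 was lower by 1.21 (SE 0.14, adjusted p = 3.58e-07). The cortex thus reached 31.1% of its measured fall at 120 d and 87.9% at 145 d. The brainstem shares of 49.8% at 120 d and 99.7% at 145 d are taken of a fall that is cut short by the floor, so that they may be too high and were not set against those of the cortex.

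In the hypothalamus CCNA2 stayed level at first, with 8.80, 8.90, 8.57 and 8.94 at 80 d, 8.77, 8.75, 8.92 and 9.04 at 100 d and a change between them of 0.07 (SE 0.14, adjusted p = 1). At 120 d the levels were 8.63, 8.60, 8.43 and 8.45 and the change from 80 d was -0.27 (SE 0.14, adjusted p = 0.324). The first age called was 130 d, at 8.04, 7.86, 8.22 and 8.24, where all arrays were below those at 80 d and the change was -0.71 (SE 0.14, adjusted p = 0.00261). The levels then went to 7.64, 7.21, 7.36 and 7.60 at 145 d and 7.41, 7.48, 7.02 and 6.78 at 1 d, where CCNA2 was lower by 1.63 (SE 0.14, adjusted p = 1.21e-07). In the hippocampus the 80 d levels of 8.81, 8.72, 9.06 and 9.11 were above every later array, with 8.15, 8.56 and 6.53 at 100 d and 7.04, 7.03, 6.50 and 7.01 at 1 d. The first age called there was 145 d (-1.78 (SE 0.43, adjusted p = 0.0196)), a call lost without replicate 3 or 4 at 80 d or replicate 1 or 4 at 145 d, and 130 d without the arrays of low correlation (-1.35 (SE 0.27, adjusted p = 0.00926)). At 1 d hippocampal CCNA2 was lower by 2.03 (SE 0.43, adjusted p = 0.00684), and by 1.90 (SE 0.27, adjusted p = 0.000434) without those arrays.

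CDK1, the mitotic kinase and a partner of cyclin A2, followed nearly the same course. In the brainstem its level was 8.17, 8.10, 8.54 and 8.43 at 80 d and 7.99, 7.92, 7.94 and 7.78 at 100 d, with no overlap, and was lower by 0.40 (SE 0.12, adjusted p = 0.0302). It was lower again at 120 d (7.69, 7.49, 7.73 and 7.52) and 130 d (7.29, 7.53, 7.17 and 7.44). The levels at 145 d (6.70, 7.11, 6.83 and 6.90) and at 1 d after birth (6.75, 7.02, 6.61 and 6.93) overlapped. From 80 d to 1 d brainstem CDK1 fell by 1.48 (SE 0.12, adjusted p = 4.7e-09), or by 1.52 (SE 0.12, adjusted p = 8.82e-09) without the array of low correlation, and at 1 d its probe was well above background on 2 of 4 arrays.

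In the cortex, CDK1 at 100 d (7.71, 7.73, 7.80 and 7.86) and 120 d (7.79, 7.74, 7.75 and 7.63) lay within the range of the 80 d arrays (7.81, 8.31, 7.67 and 8.29) or at its lower edge, and no change was called (120 d minus 80 d, -0.29 (SE 0.12, adjusted p = 0.0668)). At 130 d, with 7.40, 7.51, 7.27 and 7.52, all arrays were below the 80 d arrays and the change was -0.59 (SE 0.12, adjusted p = 0.000319). By 1 d, at 7.07, 6.90, 6.91 and 6.83, cortical CDK1 was lower by 1.09 (SE 0.12, adjusted p = 1.19e-07). The hypothalamus showed the same age of first call. There the levels were 8.07, 8.07, 7.96 and 8.25 at 80 d, 8.32, 7.95, 8.26 and 8.36 at 100 d and 8.05, 7.79, 7.79 and 7.61 at 120 d, and at 130 d (7.59, 7.37, 7.83 and 7.66) CDK1 was lower by 0.47 (SE 0.12, adjusted p = 0.0136). At 1 d, with 7.06, 6.92, 6.93 and 6.84, hypothalamic CDK1 was lower by 1.15 (SE 0.12, adjusted p = 1.19e-06). In the hippocampus CDK1 levels were 8.54, 8.52, 8.68 and 9.08 at 80 d, 6.86, 7.31, 6.50 and 7.61 at 130 d and 6.91, 6.87, 6.56 and 7.25 at 1 d, and all later arrays were below all 80 d arrays. The first call was at 130 d, both with all arrays (-1.64 (SE 0.38, adjusted p = 0.0195)) and without the 5 of low correlation (-1.45 (SE 0.26, adjusted p = 0.00456)). The call with all arrays was lost when replicate 3 or 4 at 80 d, or replicate 1 or 3 at 130 d, was the 1 array left out.

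AURKA, the aurora kinase of centrosome and spindle, changed by the least, and its levels lay low, between 6.58 and 7.62 on all 95 arrays, where the lowest signal well above background had a median of 6.48. In the brainstem its level was 7.49, 7.51, 7.54 and 7.48 at 80 d, 7.46, 7.32, 7.46 and 7.38 at 100 d and 7.20, 7.02, 7.11 and 7.12 at 120 d. It was lower by 0.39 (SE 0.10, adjusted p = 0.0101) at 120 d, its first call, and by 0.54 (SE 0.10, adjusted p = 0.000363) at 145 d, where the arrays read 6.94, 7.00, 6.94 and 6.98. At 1 d after birth 3 arrays read 7.07, 6.91 and 7.00 and the array with the dim area read 7.59, above all 80 d arrays. The change to 1 d was -0.36 (SE 0.10, adjusted p = 0.00802) with that array and -0.51 (SE 0.07, adjusted p = 4.66e-06) without it.

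In the cortex AURKA read 7.20, 7.51, 7.27 and 7.40 at 80 d, 7.15, 7.23, 7.13 and 6.91 at 100 d and 7.10, 7.17, 7.22 and 7.09 at 120 d. The changes were -0.24 (SE 0.09, adjusted p = 0.104) at 100 d and -0.20 (SE 0.09, adjusted p = 0.0827) at 120 d, without a call. At 130 d, with 7.05, 7.15, 7.00 and 7.26, a change no larger than that of 100 d was the first called (-0.23 (SE 0.09, adjusted p = 0.0329)), although these arrays overlapped those of 80 d. At 145 d (6.82, 6.91, 7.12 and 7.11) and 1 d (6.99, 6.92, 7.02 and 6.99) all arrays were below the 80 d arrays, and AURKA was lower by 0.37 (SE 0.09, adjusted p = 0.00123) at 1 d. With the processed signal the changes were -0.75 at 145 d and -0.67 at 1 d, and neither was called. No change of AURKA was called in the hypothalamus, where the 80 d levels were 7.44, 7.35, 7.13 and 6.58 and those at 1 d were 6.95, 7.23, 6.70 and 6.89, a difference of -0.19 (SE 0.17, adjusted p = 0.507). Neither was one called in the hippocampus, with 7.25, 7.60, 7.21 and 7.62 at 80 d, 7.17, 7.31, 7.49 and 7.02 at 1 d and a difference of -0.17 (SE 0.16, adjusted p = 0.634), or of -0.25 (SE 0.17, adjusted p = 0.444) without the arrays of low correlation. In these regions the groups overlapped at every age, and the AURKA probe was well above background on 2 of 4 hippocampal arrays at 145 d and on 3 of 4 hypothalamic arrays at 80 d.

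TYMS, the enzyme that supplies thymidine nucleotides, stayed near its 80 d level in the cortex until 120 d. Its cortical levels were 8.21, 8.52, 8.01 and 8.65 at 80 d, 8.21, 8.29, 8.28 and 8.26 at 100 d and 8.09, 8.38, 8.14 and 8.21 at 120 d, with a change by 120 d of -0.14 (SE 0.13, adjusted p = 0.472). By 130 d, with 7.91, 7.76, 7.65 and 7.70, all arrays were below those at 80 d and TYMS was lower by 0.59 (SE 0.13, adjusted p = 0.000853). It had reached 14.7% of its fall at 120 d and 62.4% at 130 d, and by 1 d (7.55, 7.16, 7.42 and 7.45) it was lower by 0.95 (SE 0.13, adjusted p = 3.11e-06).

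In the brainstem TYMS read 9.11, 8.86, 9.08 and 8.96 at 80 d and 8.79, 8.57, 8.52 and 8.62 at 100 d, with no overlap but no call (-0.38 (SE 0.19, adjusted p = 0.216)). It was called from 120 d (8.34, 8.31, 8.43 and 7.81), where it was lower by 0.78 (SE 0.19, adjusted p = 0.00547). At 1 d after birth 3 arrays read 7.40, 7.36 and 6.83 and the array whose dim area covers the TYMS spot read 6.36. The fall from 80 d to 1 d was -2.02 (SE 0.19, adjusted p = 5.32e-08) with that array and -1.81 (SE 0.16, adjusted p = 3.67e-08) without it. The hypothalamus kept TYMS at 8.71, 8.55, 8.47 and 8.95 at 80 d, 8.78, 8.61, 8.73 and 8.38 at 100 d and 8.78, 8.62, 8.48 and 8.44 at 120 d, a spread within which the groups overlapped. At 130 d the hypothalamic arrays were split, at 8.48, 8.00, 8.53 and 7.56, with no call (-0.53 (SE 0.22, adjusted p = 0.15)), and at 145 d, with 8.20, 7.28, 7.60 and 7.67, TYMS was lower by 0.98 (SE 0.22, adjusted p = 0.00441). In the hippocampus TYMS read 8.76, 8.85, 9.21 and 9.30 at 80 d, 8.52, 8.65, 8.54 and 6.71 at 120 d and 7.14, 7.55, 6.45 and 7.35 at 1 d. It was called only at 1 d with all arrays (-1.91 (SE 0.52, adjusted p = 0.0332)), and from 130 d without the arrays of low correlation (-1.32 (SE 0.36, adjusted p = 0.041)). The 1 d call with all arrays was lost with the slide as a block (-1.52 (SE 0.47, adjusted p = 0.0676)), a normexp offset of 16 (-2.33) or the processed signal (-3.31). It was also lost without any 1 of the 80 d arrays, or without replicate 1, 3 or 4 at 1 d. Another probe that the array files place in the TYMS transcript cluster, and which was not counted as a member, changed from 80 d to 1 d by -1.87 in the cortex, -2.49 in the brainstem, -2.76 in the hippocampus and -1.87 in the hypothalamus, more than the TYMS probe in each. In the hippocampus that probe passed the F test with all arrays (adjusted p of the F test 0.000963). It was called there from 130 d (-1.69 (SE 0.38, adjusted p = 0.0171)), earlier than the TYMS probe with all arrays. In the cortex, brainstem and hypothalamus its first call came at 130, 120 and 145 d, the same ages as for the TYMS probe.

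PCNA, the polymerase clamp, fell early in the cortex. Its cortical levels were 9.92, 10.58, 10.08 and 10.37 at 80 d and 9.91, 9.88, 9.84 and 9.65 at 100 d, the 1 gene of the 6 whose 100 d arrays were all below the 80 d arrays in this region, and it was lower by 0.42 (SE 0.12, adjusted p = 0.038). The gap was narrow, from 9.913 to 9.917, and the 100 d call was lost in some of the fits with 1 array left out. The levels went on to 9.64, 9.64, 9.71 and 9.31 at 120 d, 9.35, 9.43, 9.35 and 9.15 at 130 d and 9.12, 8.99, 9.25 and 9.17 at 145 d, and were 9.29, 9.13, 9.12 and 9.03 at 1 d. Cortical PCNA had reached 60.5% of its fall at 120 d and 100.7% at 145 d, for a total of -1.10 (SE 0.12, adjusted p = 1.3e-07).

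In the brainstem the PCNA levels were 10.23, 10.19, 10.30 and 10.46 at 80 d and 10.13, 9.92, 10.15 and 10.01 at 100 d, which did not overlap, and the change was -0.24 (SE 0.13, adjusted p = 0.246). The first call was at 130 d (9.71, 9.81, 9.84 and 9.82), where PCNA was lower by 0.50 (SE 0.13, adjusted p = 0.00616), but without the 1 d array of low correlation it was 100 d (-0.24 (SE 0.08, adjusted p = 0.0294)). At 1 d 3 arrays read 9.57, 9.61 and 9.42 and that array read 8.80, and the change from 80 d was -0.94 (SE 0.13, adjusted p = 6.07e-06) with it and -0.75 (SE 0.08, adjusted p = 3.91e-07) without it. In the hypothalamus PCNA read 10.23, 10.44, 9.97 and 10.46 at 80 d, 10.16, 10.09, 10.01 and 10.02 at 130 d and 10.06, 9.86, 9.37 and 9.20 at 1 d. It was called from 145 d (-0.48 (SE 0.16, adjusted p = 0.0468)), a call lost when 1 array was left out in 18 of 24 cases, and no age was free of overlap with 80 d. The 145 d call was also lost with a normexp offset of 16 (-0.51), the brightest probe (-0.37), each probe on its own and the eBayes trend with robust fitting. At 1 d hypothalamic PCNA was lower by 0.65 (SE 0.16, adjusted p = 0.00577). In the hippocampus all later arrays were below the 80 d arrays (10.70, 10.54, 10.88 and 10.73), with 8.73, 9.998, 7.88 and 9.70 at 130 d and 9.70, 9.98, 7.63 and 9.58 at 1 d, and the arrays within an age were so far apart that no age was called (1 d minus 80 d, -1.49 (SE 0.67, adjusted p = 0.243)). Without the arrays of low correlation PCNA was called at 130 d (-1.24 (SE 0.31, adjusted p = 0.0314)) and 145 d (-1.21 (SE 0.31, adjusted p = 0.0315)) and not at 1 d (-0.96 (SE 0.31, adjusted p = 0.0733)).

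LMNB1, the lamin of cycling nuclei, passed the F test in all 4 regions and was called at 100 d in both the cortex and the brainstem. In the brainstem its levels were 8.90, 8.99, 9.00 and 9.00 at 80 d, 8.67, 8.27, 8.38 and 8.31 at 100 d and 7.97, 7.69, 8.04 and 7.79 at 120 d, with no overlap between these ages. Both steps were called, the first at -0.56 (SE 0.14, adjusted p = 0.0157) and the next at -0.54 (SE 0.14, adjusted p = 0.0437). The step from 100 d to 120 d was called for neither probe on its own (limma, adjusted p of 0.0810 for probe 1 and 0.0894 for probe 2). Its call was also lost in most fits with 1 array left out. LMNB1 then read 7.68, 7.47, 7.40 and 7.53 at 130 d and 7.13, 7.19, 6.99 and 7.09 at 145 d. At 1 d 3 arrays read 7.06, 7.22 and 7.22, near the levels of 145 d, and the array whose dim area covers 1 LMNB1 spot read 6.35. The total fall was -2.01 (SE 0.14, adjusted p = 1.44e-09) with that array and -1.80 (SE 0.10, adjusted p = 1.01e-10) without it.

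In the cortex LMNB1 read 9.19, 9.60, 8.53 and 9.10 at 80 d and 8.79, 8.65, 8.15 and 8.61 at 100 d, and it was lower by 0.55 (SE 0.15, adjusted p = 0.0337), although the lowest 80 d array was below 3 of the 100 d arrays. From 120 d (8.27, 8.22, 8.08 and 8.04) every array was below all 80 d arrays. The levels at 145 d were 7.55, 7.45, 7.62 and 7.54 and those at 1 d were 7.45, 7.25, 7.44 and 7.46, and LMNB1 fell by 1.70 (SE 0.15, adjusted p = 9.83e-09) in all. In the hypothalamus LMNB1 read 9.01, 8.78, 8.47 and 8.72 at 80 d, 8.54, 8.51, 8.56 and 8.49 at 100 d and 8.49, 8.24, 8.03 and 8.40 at 120 d, without a call (120 d minus 80 d, -0.45 (SE 0.17, adjusted p = 0.115)). At 130 d (8.02, 7.72, 8.03 and 7.15) it was lower by 1.01 (SE 0.17, adjusted p = 0.000418), which was 85.6% of its total, and it read 7.59, 7.51, 7.52 and 7.65 at 145 d and 7.85, 7.71, 7.37 and 7.32 at 1 d. In the hippocampus the LMNB1 levels were 8.99, 9.06, 8.84 and 9.37 at 80 d, 7.49, 8.14, 7.33 and 7.99 at 130 d and 7.28, 7.41, 7.28 and 7.43 at 1 d. Hippocampal LMNB1 was called from 130 d (-1.33 (SE 0.22, adjusted p = 0.00134)) and was lower by 1.72 (SE 0.22, adjusted p = 4.39e-05) at 1 d. Without the arrays of low correlation these changes were -1.19 (SE 0.21, adjusted p = 0.00411) and -1.69 (SE 0.21, adjusted p = 0.00013).

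The probes of LMNB1 differed in the size of the fall. From 80 d to 1 d, LMNB1 probe 1 changed by -2.02 in the cortex and probe 2 by -1.39, and in the brainstem they changed by -2.57 and -1.44. The hippocampal values were -2.19 and -1.25, and the hypothalamic ones -1.46 and -0.91. Probe 1 thus fell further in each region, although the probes share 30 of their 60 bases. Probe 2 was well above background on 2 of 4 brainstem arrays at 1 d and on 3 of 4 hippocampal arrays at 120, 130 and 145 d and at 1 d, so that its fall may be cut short there. In the hippocampus only probe 1 passed the F test (adjusted p of 9.96e-06 for probe 1 and 0.154 for probe 2). The PCNA probes were nearer to each other in 3 regions, at -1.01 and -1.18 in the cortex, -1.43 and -1.55 in the hippocampus, and -0.58 and -0.73 in the hypothalamus. In the brainstem PCNA probe 1 changed by -0.60 and probe 2 by -1.28 with the 1 d array whose dim area covers 1 PCNA spot, and at 145 d by -0.51 and -0.70.

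Set side by side, the ages of first call differed between regions, but each region had its own fit and spread, so that this is no test of a difference. In direct tests of the change from 80 d between regions, 0 of 36 were called at 100 d and 0 of 36 at 120 d. At 130 d 2 of 36 were called. Without the arrays of low correlation these counts were 0, 0 and 5. In the cortex 2 of 6 genes were called lower at 100 d (PCNA and LMNB1, against 3.44% of all genes tested), 3 at 120 d (15.9%, with CCNA2 added), and 6 at 130 d (21.3%), 145 d (22.6%) and 1 d (25%). In the brainstem 3 were called at 100 d (CCNA2, CDK1 and LMNB1, against 6.73%), 5 at 120 d (11%, with TYMS and AURKA added), and 6 at 130 d (12.9%), 145 d (20.8%) and 1 d (20.9%). In the hypothalamus none of the 6 was called at 100 d (0.00774%) or 120 d (3.86%). There 3 were called at 130 d (CCNA2, CDK1 and LMNB1, against 5.76%), and 5 at 145 d (8.09%) and 1 d (9.63%), with TYMS and PCNA added. In the hippocampus none was called at 100 d (0.0158%) or 120 d (0.575%), 2 at 130 d (CDK1 and LMNB1, against 1.57%), 3 at 145 d (2.27%) and 4 at 1 d (3.31%). Without the arrays of low correlation the hippocampal counts were 0, 0, 5, 5 and 4, against 0%, 0.914%, 3.7%, 3.77% and 5.68% of all genes, and those of the brainstem 4, 6, 6, 6 and 6, against 13.7%, 17.6%, 18.9%, 26.7% and 25.3%. The spread between arrays was wider in the hippocampus, where the SE of the PCNA change at 1 d was 0.67, against 0.12 in the cortex. Counting arrays that do not overlap gave 6 of 6 genes in the brainstem at 100 d, where 13.9% of all genes tested had every 100 d array below every 80 d array. The same count was 1 in the cortex (6.07%), 4 in the hippocampus (4.72%) and 0 in the hypothalamus (1.47%).

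**Figure D3:**
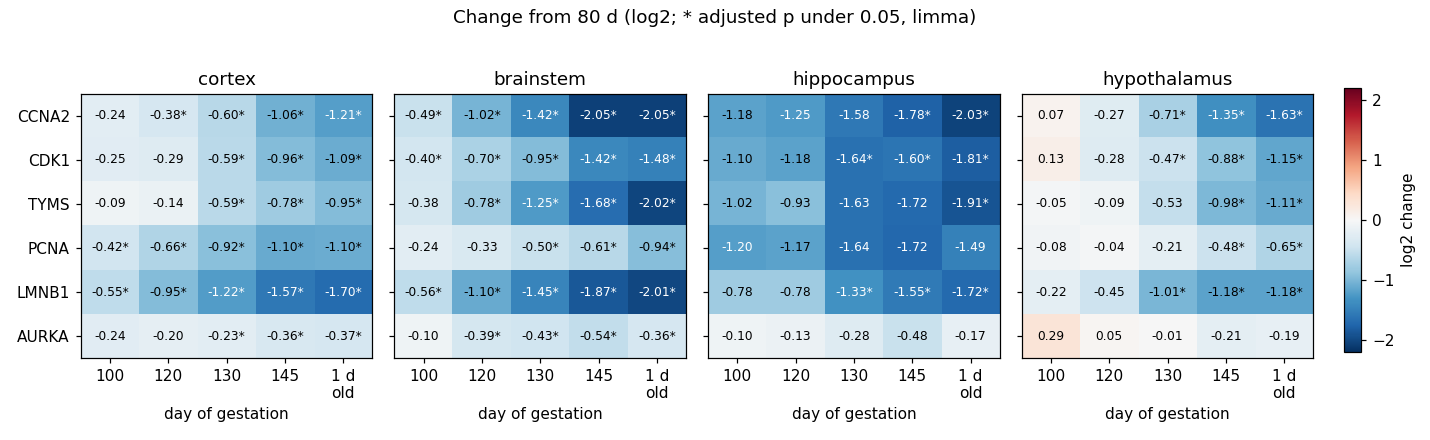
Change of each gene (rows) from 80 d at each later age (columns) in the 4 regions, as log2 difference of group means printed in each cell and coloured from blue (lower) to red (higher); an asterisk marks an adjusted p under 0.05 (limma, over all genes of the region). At 100 d asterisks stand on PCNA and LMNB1 in the cortex and on CCNA2, CDK1 and LMNB1 in the brainstem, and AURKA has none in the hippocampus or hypothalamus.

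The share of the total fall reached at each age describes the pace, leaving out AURKA, whose fall was small. At 100 d the 5 genes had a median share of 25.6% in the brainstem (range 18.8% to 28.0%), 22.5% in the cortex (9.19% to 38.2%) and 4.27% in the hypothalamus (-11.6% to 18.6%). At 130 d the medians were 64.2% in the brainstem, 62.4% in the cortex and 43.6% in the hypothalamus, and at 145 d they were 93.2%, 87.9% and 82.8%. The hippocampus had a median share of 58.0% at 100 d with all arrays and 33.8% without the 5 arrays of low correlation, 1 of which is a 100 d array and 1 a 1 d array. Its median was 85.6% at 130 d and 90.1% at 145 d with all arrays, and 78.3% and 87.9% without those 5. The hippocampal probes of CCNA2, CDK1 and TYMS were each well above background on 2 of 3 arrays at 100 d and on 3 of 4 at every later age. The hippocampal shares with all arrays are therefore also partly taken from levels at the floor. In the cortical means PCNA and LMNB1 stood at 60.5% and 55.9% at 120 d and TYMS at 14.7%. In the brainstem PCNA, which was above background throughout, stood at 64.7% at 145 d, and at 80.5% without the 1 d array of low correlation. The shares of CCNA2, CDK1, TYMS and LMNB1 in the brainstem are, at every age, taken of a fall to a 1 d level that is partly at the floor. They and the brainstem medians may therefore be too high, and were not ranked against PCNA or against the other regions. In the hypothalamus LMNB1 was ahead at 130 d, at 85.6%, and PCNA behind, at 31.8%. The order of genes within a region was not tested. The shares also depend on the processing, and with the processed signal 22 of 96, those of AURKA included, moved by more than the spread between arrays.

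**Figure D4:**
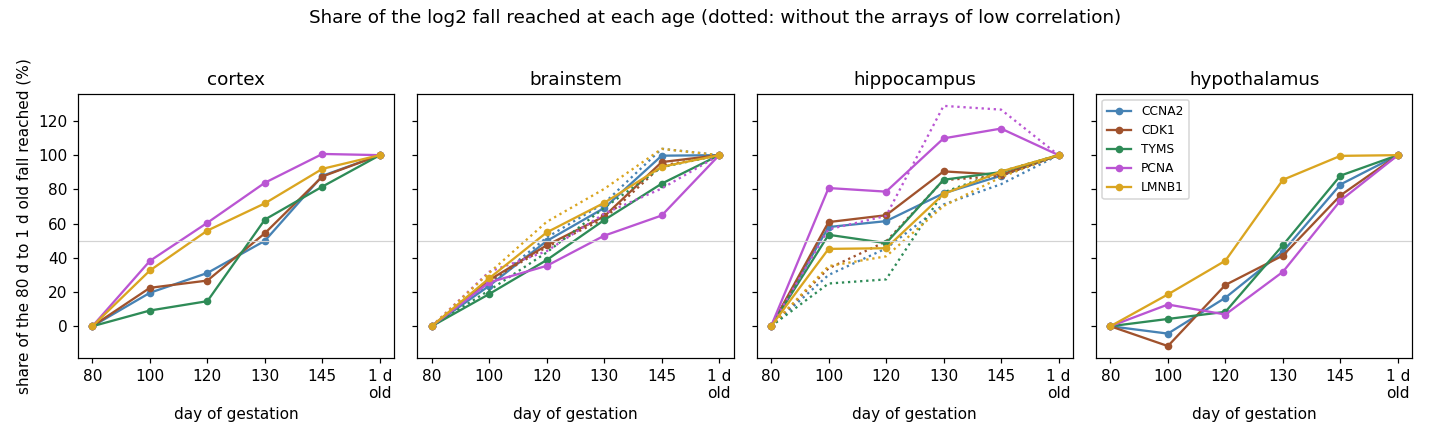
Share of the fall from 80 d to 1 d after birth reached at each age (y axis, percent of the log2 change; x axis, age in evenly spaced categories) for the 5 genes other than AURKA; dotted lines leave out the arrays of low correlation. At 120 d cortical PCNA and LMNB1 stand above the line at 50% and TYMS at 14.7%, and the hypothalamic genes other than LMNB1 lie below 50% up to and including 130 d.

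Between neighbouring ages, the calls were few. After 100 d the steps called among the 6 genes were those of CCNA2 and LMNB1 from 100 d to 120 d in the brainstem (1.33% of all genes lower) and that of CCNA2 from 130 d to 145 d in the brainstem (0.626%). When 1 array was left out these calls were lost in 11, 17 and 7 of 24 cases. Without the 1 d array of low correlation the brainstem had 3 such calls from 100 d to 120 d, with AURKA added (-0.29 (SE 0.06, adjusted p = 0.00672)), against 3.57% of all genes lower. It then had 3 from 130 d to 145 d, with CDK1 (-0.47 (SE 0.11, adjusted p = 0.0194)) and LMNB1 (-0.42 (SE 0.09, adjusted p = 0.0104)) added, against 3.86%. The step from 145 d of gestation to 1 d after birth spans delivery, and none of the 24 gene and region pairs was called for it in the limma fit. In that step 0.0931% of all genes in the cortex, 1.07% in the brainstem, 0% in the hippocampus and 0.719% in the hypothalamus were called lower. The pairs with the smallest adjusted p were brainstem PCNA, with a change of -0.33 (SE 0.13, adjusted p = 0.136), and hypothalamic CDK1, with -0.27 (SE 0.12, adjusted p = 0.22). Without the 1 d array of low correlation the brainstem PCNA change was -0.15 (SE 0.08, adjusted p = 0.34). Hypothalamic CCNA2 changed over that step by -0.28 (SE 0.14, adjusted p = 0.293) and cortical PCNA by 0.01 (SE 0.12, adjusted p = 0.999).

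Whether a gene fell further in one region than in another was tested as a difference of changes from 80 d, in 1 limma fit of all 24 groups over the 12314 genes tested in every region. The fit took the regions as independent, although they share animals, so that its SEs and intervals do not allow for the sharing. The labels do not match animals across regions. A block of age and replicate number across regions, chosen after seeing the data, gave 1 call of 36 at 145 d in place of 0. Each age has 36 such tests for the 6 genes, and those at 100, 120 and 130 d were added after the data had been seen. For the change to 1 d, 1 of 36 was called, that of LMNB1, which changed by -2.01 in the brainstem and -1.18 in the hypothalamus, a difference of -0.82 (SE 0.24, adjusted p = 0.0281) with a 95% interval of -1.31 to -0.34, where 6.12% of all genes were called in either direction. The shares of all genes called at 1 d were 11.7%, 1.65% and 2.83% for the cortex against the brainstem, hippocampus and hypothalamus, 3.5% for brainstem against hippocampus and 0.763% for hippocampus against hypothalamus. Without the brainstem array of low correlation this difference of LMNB1 was -0.62 (adjusted p = 0.13), and it also lost its call when hypothalamus replicate 3 at 80 d, or replicate 1 or 2 at 1 d, was left out (adjusted p of 0.070, 0.073 and 0.057). With each probe on its own it was called for LMNB1 probe 1 (-1.11, adjusted p = 0.00832). It was not called for probe 2, which changed by -1.44 in the brainstem and -0.91 in the hypothalamus. In the brainstem at 1 d probe 1 was well above background on 3 of 4 arrays and probe 2 on 2 of 4. At 145 d none of the 36 was called, where the shares of all genes called were 11.6%, 1.62% and 4.13% for the cortex against the brainstem, hippocampus and hypothalamus, 3.05% and 1.22% for the brainstem against the hippocampus and hypothalamus, and 2.01% for hippocampus against hypothalamus. None was called at 100 d or 120 d, where at most 0.0893% and 2.44% of all genes were, both for cortex against brainstem. At 100 d a larger fall in the hippocampus than in the hypothalamus (0.0162% of all genes called) was called only when 1 array was left out. It was called for CDK1 without hippocampal replicate 1 at 100 d (-1.34, adjusted p = 0.0291), and for CDK1 (-1.66, adjusted p = 0.00657) and CCNA2 (-1.65, adjusted p = 0.0419) without replicate 2. Both omissions kept replicate 3 at 100 d, an array of low correlation. Without the arrays of low correlation the hippocampal change at 100 d was -0.57 for CDK1 and -0.57 for CCNA2, and 0 of 36 differences were called.

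At 130 d 2 of 36 were called, both of CDK1 and both with the hippocampus, where CDK1 had changed by -1.64, against -0.59 in the cortex and -0.47 in the hypothalamus. The difference was 1.04 (SE 0.30, adjusted p = 0.0315) for cortex minus hippocampus, with a 95% interval of 0.44 to 1.65 and 4.56% of all genes called. For hippocampus minus hypothalamus it was -1.16 (SE 0.30, adjusted p = 0.0292), with an interval of -1.77 to -0.56 and 1.72% of all genes called. The shares of all genes for the other pairs were 6.34% and 2.86% for the cortex against the brainstem and hypothalamus, and 1.65% and 0.52% for the brainstem against the hippocampus and hypothalamus. Neither CDK1 difference was called with an offset of 16, the processed signal, quantile normalization within each region or the slide as a block. The first was also lost without cortical replicate 1 or 3 at 80 d or 2 or 4 at 130 d, or hippocampal replicate 3 or 4 at 80 d or 1 or 3 at 130 d (adjusted p of 0.0506 to 0.143). The other was lost without hippocampal replicate 4 at 80 d or 1 or 3 at 130 d, or hypothalamic replicate 3 at 130 d (0.0742 to 0.149). Without the 6 arrays of low correlation 5 of 36 were called at 130 d. CDK1 then differed by 0.86 (SE 0.22, adjusted p = 0.00762) for cortex minus hippocampus and by -0.98 (SE 0.22, adjusted p = 0.0035) for hippocampus minus hypothalamus. PCNA differed by -1.03 (SE 0.25, adjusted p = 0.00724) for hippocampus minus hypothalamus, and CCNA2 by 0.81 (SE 0.24, adjusted p = 0.0128) for cortex minus brainstem and 0.75 (SE 0.25, adjusted p = 0.0438) for cortex minus hippocampus. The shares of all genes called without these arrays were 14.7% for cortex against brainstem, 9.45% for cortex against hippocampus and 5.93% for hippocampus against hypothalamus.

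CCNA2 fell by 1.06 in the cortex and by 2.05 in the brainstem up to 145 d, and the difference was 0.98 (SE 0.36, adjusted p = 0.0588) with a 95% interval of 0.27 to 1.69, which missed the threshold, as did the difference at 1 d (0.84 (SE 0.36, adjusted p = 0.117)). In the brainstem the CCNA2 probe was well above background on 2 of 4 arrays at 145 d and on 1 of 4 at 1 d. The brainstem fall, and with it the size of these differences, is therefore not resolved. The 145 d difference was called with the slide as a block (0.97, adjusted p = 0.0279), the replicate block across regions (0.98, adjusted p = 0.0482), the series table of the authors (0.86, adjusted p = 0.0483) and quantile normalization within each region (1.00, adjusted p = 0.0196). TYMS differed between these regions by 1.07 (SE 0.44, adjusted p = 0.104) at 1 d, and was called with quantile normalization within each region (1.09, adjusted p = 0.0427). That of LMNB1 between brainstem and hypothalamus at 145 d was called with the slide as a block (-0.78, adjusted p = 0.0166) and with quantile normalization within each region (-0.85, adjusted p = 0.0353). Without the 6 arrays of low correlation, which also narrows the pooled spread of the fit, 3 of 36 were called at 145 d, CCNA2 and TYMS between cortex and brainstem (0.98 (SE 0.24, adjusted p = 0.00138) and 0.90 (SE 0.31, adjusted p = 0.0252)) and LMNB1 between brainstem and hypothalamus (-0.69 (SE 0.22, adjusted p = 0.0461)). Then 1 was called at 1 d, CCNA2 between cortex and brainstem (0.76 (SE 0.25, adjusted p = 0.0229)). The shares of all genes called without these arrays were 22.2% and 4.91% at 145 d and 17.7% at 1 d. For CDK1 the difference between cortex and hypothalamus at 1 d was 0.06 (SE 0.30, adjusted p = 0.977), with an interval of -0.55 to 0.66. Since each slide held 1 region, the region and the slide set cannot be told apart in these differences.

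**Figure D5:**
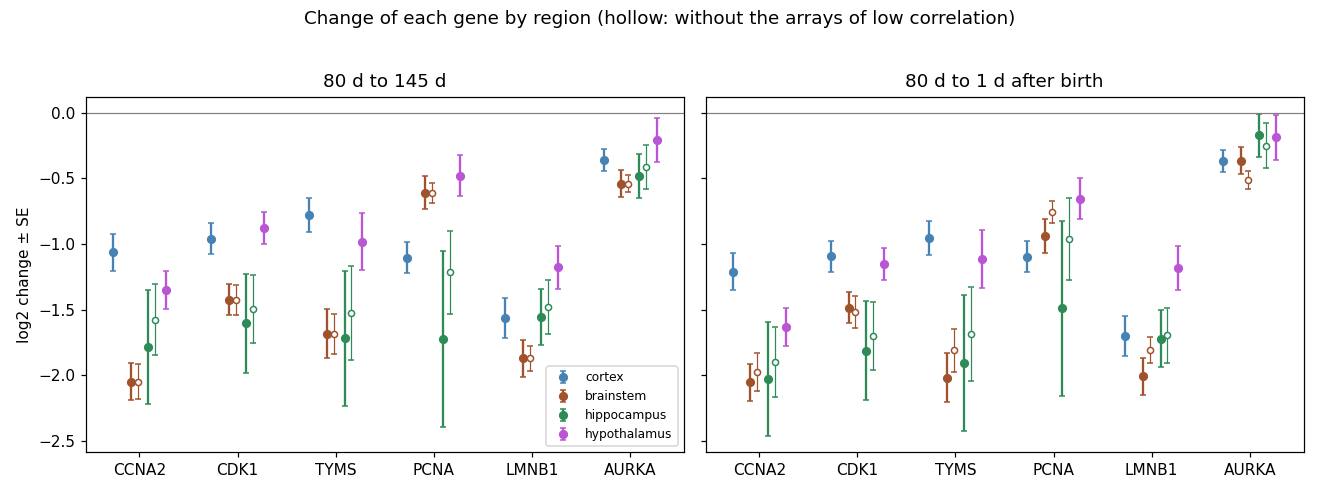
Change of each gene (x axis) from 80 d to 145 d (left) and to 1 d after birth (right) in the 4 regions, as log2 change (y axis) with 1 SE of the limma fit on either side; hollow points leave out the arrays of low correlation. CCNA2 changed by -1.06 in the cortex and -2.05 in the brainstem up to 145 d, and the widest error bars are those of hippocampal PCNA, with an SE of 0.67.

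The ages were spread over slides in the cortex, brainstem and hypothalamus, so that a change could be taken within a slide that held both 80 d and the later age. For the 5 genes other than AURKA, the change to 145 d or 1 d was below 0 within every such slide in 40 of 40 combinations of gene, region and age, over 3 slides in these regions and 2 in the hippocampus. Between 23.9% and 37.6% of all genes tested were below 0 within every such slide, by region and age. For AURKA this held in 5 of 8, the exceptions being the hippocampus at 1 d (-0.25 to 0.10) and the hypothalamus at 145 d (-0.37 to 0.36) and 1 d (-0.45 to 0.64).

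Few other genes of the cell cycle could be identified, since 13415 of the 15008 probes carry an accession only, so that a gene without a name here may still have a probe. The counts of list genes given from here on stand beside the 45.8%, 40.1%, 3.01% and 14.8% of all genes that passed the F test in either direction in the cortex, brainstem, hippocampus and hypothalamus. Of a list of 92 cell cycle genes, 8 were identified, 3 of them CCNA2, CDK1 and AURKA. Of the other 5, 2 passed the F test and were lower at 1 d and 1 was higher in both the cortex and the brainstem, 1 was lower in the hypothalamus and none passed in the hippocampus. CDK2 (a kinase of DNA synthesis) and CDK4 (a kinase of G1) were lower at 1 d than at 80 d in the cortex, by -0.48 (SE 0.14, adjusted p of the F test 0.0214) and -0.81 (SE 0.10, adjusted p of the F test 1.81e-06), and in the brainstem, by -1.24 (SE 0.26, adjusted p of the F test 0.00787) and -0.72 (SE 0.10, adjusted p of the F test 5.61e-07). Without the 1 d array of low correlation CDK2 changed by -0.82 in the brainstem. In the hypothalamus CDK2 passed (-0.65 (SE 0.16, adjusted p of the F test 0.0063)). CCND3, a D-type cyclin of G1, went the other way and rose in the cortex (0.70 (SE 0.13, adjusted p of the F test 0.00307)) and the brainstem (1.30 (SE 0.19, adjusted p of the F test 0.000209)). CCND2, also a D-type cyclin, and SKP1 did not pass in any region with all arrays, but CCND2 passed in the brainstem without the array of low correlation (-0.94, adjusted p of the F test 0.0257). The median change of these 5 was -0.45 in the cortex, -0.72 in the brainstem, -0.78 in the hippocampus and -0.35 in the hypothalamus.

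Of 78 genes of DNA replication and nucleotide synthesis, 8 were listed, PCNA and TYMS among them. Of the other 6, 2 were lower in the cortex, 2 lower and 1 higher in the brainstem, none changed in the hippocampus and 1 was lower in the hypothalamus. DNMT1, which copies DNA methylation after replication, was lower in the brainstem (-1.16 (SE 0.20, adjusted p of the F test 0.00027)) and hypothalamus (-0.73 (SE 0.16, adjusted p of the F test 0.00648)) and did not pass in the cortex (0.06 (SE 0.08, adjusted p of the F test 0.0911)). RPA1, which binds single-stranded DNA, was lower in the brainstem (-0.45 (SE 0.12, adjusted p of the F test 0.00293)). ASF1A, a histone chaperone, was lower in the cortex (-0.47 (SE 0.12, adjusted p of the F test 0.00778)), and so was MTHFD2, of folate metabolism (-0.36 (SE 0.16, adjusted p of the F test 0.031)). SHMT1, also of folate metabolism, was higher in the brainstem (0.80 (SE 0.21, adjusted p of the F test 0.00372)), and UMPS passed in no region. Without the arrays of low correlation SHMT1 also passed in the hippocampus (0.81, adjusted p of the F test 0.0124) and MTHFD2 in the brainstem (-0.10, adjusted p of the F test 0.0233). The median change of the 6 genes of this list other than PCNA and TYMS was -0.06 in the cortex, -0.09 in the brainstem, -0.18 in the hippocampus and -0.20 in the hypothalamus. Of 17 genes of the nuclear lamina and envelope LMNB1 was the 1 listed. Among inhibitors of the cell cycle, CDKN1B (p27) passed in the cortex (-0.61 (SE 0.14, adjusted p of the F test 0.00651)) and brainstem (-0.24 (SE 0.19, adjusted p of the F test 0.0231), and -0.05 without the array of low correlation), and CDKN1C (p57) in the brainstem (0.54 (SE 0.24, adjusted p of the F test 0.0492)), while SFN passed in none.

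Markers of cell types moved over the same ages. Of 15 neural progenitor markers, PAX6 and VIM were listed. Both fell in the brainstem (-1.55 (SE 0.23, adjusted p of the F test 4.18e-05) for PAX6 and -1.04 (SE 0.26, adjusted p of the F test 0.014) for VIM), PAX6 fell in the hypothalamus (-0.62 (SE 0.18, adjusted p of the F test 0.000957)), and neither passed in the cortex or hippocampus. Their summed level in the brainstem was 86143 to 188650 at 80 d and 38970 to 80528 at 1 d, and in the cortex 32465 to 40721 and 34243 to 46897 (linear brightness). No neuron marker of 15 was identified among the named probes, so that the neuronal part of the tissue was not checked here. Of 9 astrocyte markers 4 were listed (GFAP, AQP4, GJA1 and EAAT2), with 4 higher in the cortex, 3 in the brainstem, 3 in the hippocampus and 2 in the hypothalamus and none lower. GFAP, the filament of astrocytes, rose by 3.44 (SE 0.18, adjusted p of the F test 2.72e-11) in the cortex and by 2.86 (SE 0.27, adjusted p of the F test 5.99e-07) in the brainstem. The summed astrocyte level was 7066 to 17870 at 80 d and 17871 to 56145 at 1 d in the cortex, and 32926 to 55802 and 40958 to 96468 in the brainstem. In the hippocampus that sum was 9239 to 37632 at 80 d and 17712 to 31827 at 1 d, and in the hypothalamus 998 to 62840 and 7193 to 26457.

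The oligodendrocyte gap junction gene CX32, the 1 of 14 such markers listed, rose in all 4 regions, by 0.61 (SE 0.09, adjusted p of the F test 2.49e-07) in the cortex, 3.27 (SE 0.26, adjusted p of the F test 4.59e-09) in the brainstem, 1.59 (SE 0.27, adjusted p of the F test 9.95e-05) in the hippocampus and 1.92 (SE 0.21, adjusted p of the F test 1.85e-07) in the hypothalamus. Its level in the brainstem was 139 to 148 at 80 d and 1041 to 1658 at 1 d. Of 13 microglia markers ITGAM and CD14 were listed, and both were higher in the cortex and brainstem, 1 in the hypothalamus and none in the hippocampus. ITGAM did not pass in the brainstem without the array of low correlation (0.30, adjusted p of the F test 0.0741). Choroid plexus markers, TTR and AQP1 of 9, passed in no region, but their summed level spread widely between arrays, from 97.4 to 321766 in the brainstem at 80 d. Erythroid markers, 4 of 18, had 1 lower and 1 higher in the cortex, 1 lower and 2 higher in the brainstem, none of 3 tested in the hippocampus and 1 higher in the hypothalamus. Of 9 endothelial markers 3 were listed, with 2 lower and 1 higher in the cortex, 1 of 2 tested lower in the brainstem and none in the hippocampus or hypothalamus. Without the array of low correlation PECAM1, an endothelial adhesion molecule, also passed in the brainstem (-0.24, adjusted p of the F test 0.000265). The part of these cell types in the fall of the 6 genes was not tested.

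Of the 6 genes, CCNA2, CDK1, TYMS and LMNB1 were the most alike in pattern. Over the 24 group means of region and age, each centred on its region, CCNA2 had a Pearson r of 0.99 with CDK1 and 0.98 with TYMS, and TYMS had 0.97 with CDK1 and 0.95 with LMNB1. PCNA stood further off, at 0.87 with CCNA2 and 0.92 with CDK1, and AURKA furthest, at 0.72 with PCNA and 0.83 with CCNA2. Among all 851 genes listed by name and tested in the 4 regions, the 3 most like CCNA2 were CDK1, TYMS and PMCH (0.96), and those most like CDK1 were CCNA2, TYMS and PMCH (0.96). For TYMS they were CCNA2, CDK1 and LMNB1, and for LMNB1 they were CCNA2, TYMS and PMCH (0.95). PCNA was most like MSTN (0.95), PLIN2 (0.93) and ODC1 (0.93), and AURKA most like LCK (0.88), CCNA2 (0.83) and LMNB1 (0.82). Without the hippocampus, over 18 group means, CCNA2 was the gene most like AURKA (0.88), and LCK (0.87) ranked 3 and LMNB1 (0.84) ranked 4. MSTN (0.93) was still the gene most like PCNA, and PLIN2 (0.91) ranked 4 and ODC1 (0.91) ranked 5. For TYMS, LMNB1 then ranked 4, and for LMNB1, CCNA2, TYMS and PMCH ranked 2, 3 and 4. These values describe group means that share arrays, and carry no test.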

How the data were processed

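The deposited array files hold linear spot intensity values from the one-colour scanner (Cy3), which the authors extracted with Agilent Feature Extraction, version 10.1.1.1 per the file headers. The deposited series table holds the authors' log2 values, background-corrected and quantile-normalized with limma, and each of its 95 columns matched its own array over 11138 probes. It served as an alternative. Here the foreground and local background intensities of the array files were corrected by normexp with an offset of 50, which narrows the changes of dim probes, quantile-normalized over all 95 arrays and put on the log2 scale with limma 3.58.1 in R 4.3.3. Control spots were left out, and a probe entered the fit of a region if 4 or more of its arrays exceeded the negative controls' 95th percentile by a factor of 1.1. The probes of a gene were averaged, which left 12895 genes in the cortex, 12771 in the brainstem, 12685 in the hippocampus and 12928 in the hypothalamus.

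Groups were taken from the sample labels. Age was fitted as a factor within each region with lmFit and eBayes, and region differences in 1 fit of 24 groups. P-values are two-sided, adjusted by Benjamini-Hochberg over all genes of the fit, with calls at an adjusted p under 0.05. An array has no read depth, so that the number of arrays limits the precision. The genes named are the 6 members, the 3 named genes most like each over the 24 centred group means, and, but for 1 gene not reported here, the genes of the lists that passed the F test, other list genes being counted or named beside their list. The members and lists were chosen with earlier results of these data known. The alternatives were the series table, no filter, quantile normalization within each region, an offset of 16 in normexp, scaling of the processed signal to its 75th percentile, the brightest probe, each probe on its own, dim areas left out, an eBayes trend with robust fitting, the slide as a fixed block, a replicate block, a stricter threshold and each array left out in turn. Leaving out the 6 arrays of low correlation, the replicate block across regions, and the region differences at 100, 120 and 130 d were chosen after seeing the data. The fits were tested on simulated data. The promoters of the genes were not analysed here.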

Additional observations from a re-analysis of the deposited data

Results flagged for a closer look

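Each gene was checked in each group of 4 arrays, which gave 138 sets of values, those of different genes sharing arrays. In 5 of 138 sets, 1 array's gap to its nearest neighbour took up more of the range than Dixon's critical value at 95% allows, where chance alone gives about 1 in 20 sets. Hippocampal PCNA at 1 d after birth was 7.63 on replicate 3 and 9.58 to 9.98 on the other 3 arrays. On the same array CCNA2 was 6.50, against 7.01 to 7.04. Hippocampal TYMS at 120 d was 6.71 on replicate 4 and 8.52 to 8.65 on the others. These 3 values come from arrays of low correlation with their region. The other 2 are small gaps in narrow groups. LMNB1 in the brainstem at 80 d was 8.90 on replicate 1 and 8.99 to 9.00 on the others, and LMNB1 in the cortex at 1 d was 7.25 on replicate 2 and 7.44 to 7.46 on the others.

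The fall of LMNB1 from 80 d to 1 d differed between 2 regions by a test of the difference itself, at -0.82 for brainstem minus hypothalamus (limma, adjusted p = 0.0281), and this was the 1 such call among 36 at 1 d. With the processed signal it was -1.66. It was lost without brainstem replicate 4 at 1 d, whose dim area covers 1 of the LMNB1 spots (-0.62, adjusted p = 0.13). With each probe on its own it was called for LMNB1 probe 1 (-1.11, limma, adjusted p = 0.00832) and not for probe 2. At 130 d the fall of CDK1 differed in the same kind of test, by 1.04 for cortex minus hippocampus (limma, adjusted p = 0.0315) and by -1.16 for hippocampus minus hypothalamus (limma, adjusted p = 0.0292).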

How the results depend on the processing

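Of the 48 changes of the 6 genes from 80 d to 145 d and to 1 d, none reversed under any setting. The numbers that kept their side of the threshold were 48 with dim areas left out, with no filter, with quantile normalization within each region and with the replicate block, 47 with the series table, the brightest probe, each probe on its own, the eBayes trend or the slide as a block, 46 with an offset of 16 or without the 6 arrays of low correlation, and 45 with the processed signal. At an adjusted p under 0.0001, 33 did. With the processed signal the changes were 1.51 to 1.76 times those reported for TYMS, 1.38 to 1.76 for LMNB1, 1.65 to 2.11 for CCNA2, 1.82 to 2.203 for CDK1, 1.82 to 4.20 for AURKA and 0.95 to 1.30 for PCNA. Cortical AURKA went from -0.36 to -0.75 at 145 d and from -0.37 to -0.67 at 1 d, and lost its call at both ages. Hippocampal TYMS at 1 d went from -1.91 to -3.31 and lost its call, and 22 of 96 shares of the fall moved by more than the spread between arrays. With the slide as a block hippocampal PCNA at 1 d was -0.79 and hippocampal AURKA -0.08. With 1 array left out, 1105 cases kept their side, 32 lost it and 3 gained it.

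The count past the F test in the hippocampus, 1, became 3 with the series table or quantile normalization within each region, 0 with each probe on its own (where every probe of a gene had to pass), 2 with the eBayes trend, 4 without the 6 arrays and 0 at the stricter threshold. Its count called lower at 145 d, 3, became 5 without the 6 arrays and 0 at the stricter threshold. In the hypothalamus the F count of 5 and the count of 5 at 145 d both became 3 at the stricter threshold. Region differences at 145 d, 0 of 36, became 1 with the series table, 2 with quantile normalization within each region, 2 with the slide as a block, 1 with the replicate block across regions and 3 without the 6 arrays. Those at 130 d, 2 of 36, became 0 with an offset of 16, the processed signal, quantile normalization within each region, the slide as a block or the stricter threshold, and 5 without the 6 arrays. The causes were not tested.

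With 1 array left out, the F count was 5 to 6 in the cortex (without replicate 2 at 80 d AURKA had an adjusted p of 0.0508), 6 to 6 in the brainstem, 1 to 3 in the hippocampus and 4 to 5 in the hypothalamus. The count at 145 d was 6 to 6 in the cortex and brainstem, 1 to 4 in the hippocampus and 4 to 5 in the hypothalamus, that of the step over birth 0 to 0, and that of region differences 0 to 1 at 145 d and 0 to 6 at 130 d. Cortical PCNA and LMNB1 at 100 d lost theirs in 5 and 6 of 24 cases, brainstem CCNA2, CDK1 and LMNB1 at 100 d in 5, 5 and 1, hippocampal TYMS at 1 d in 7 of 23, and cortical CCNA2 at 120 d and hypothalamic PCNA at 145 d in 18 of 24 each.

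Samples with the same replicate number had median correlations of 0.18, 0.04, 0.02 and 0.16 within the cortex, brainstem, hippocampus and hypothalamus, against -0.10, -0.02, 0.04 and -0.09 for other numbers. Some same-number pairs were below 0 in every region, so that the numbers were not taken to pair the samples. The replicate block within regions left the F counts at 6, 6, 1 and 5 and the counts at 145 d at 6, 6, 3 and 5. Dim signals limit the last ages of CCNA2, CDK1, LMNB1 and TYMS in the brainstem, later ages in the hippocampus, and AURKA at 3 ages in the hippocampus and 2 in the hypothalamus.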

Other observations

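In the hypothalamus at 80 d the summed level of the astrocyte markers GFAP, AQP4, GJA1 and EAAT2 ran from 998 to 62840 between 4 arrays, and the AURKA levels of that group ran from 6.58 to 7.44. In the brainstem CCND3 rose over the step from 145 d to 1 d by 0.93 (limma, adjusted p = 0.00873), a step at which none of the 6 proliferation genes was called. This rise includes the 1 d array of low correlation, and its dependence on that array was not tested.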
